A study of Mus musculus with 4 samples.

Results

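The B, T and NK lymphocyte genes described here are 39 of the 51912 genes in the deposited table, taken by gene name: 12 genes of B cells, 20 of T cells and 7 of cytotoxic and natural killer (NK) cells. All 39 were found, each on 1 gene identifier. RNA was sequenced from subcutaneous white adipose tissue (fat lying beneath the skin) of C57BL/6 mice aged 8 weeks. Mice had received BML-260, which inhibits the dual-specificity phosphatase DUSP22, or the solvent DMSO, called vehicle here. Each treatment had 2 libraries, BML-260 A and B and vehicle A and B, with 19999836 and 23726781 expected counts in BML-260 A and B, against 20407836 and 23032466 in vehicle A and B. The study's design speaks of 8 mice, 4 per treatment, and the sources used here do not say how these animals were pooled or assigned to the 4 libraries. All p-values therefore reflect the variation among 4 libraries, which may be technical. Levels are CPM, counts scaled to library size with TMM factors, unless FPKM, which also divides by transcript length, is named. Adipocyte genes were high in all libraries, and adipsin (Cfd) had 10100 and 16100 CPM in BML-260 A and B, against 20100 and 21200 CPM in vehicle A and B. The library BML-260 A stood apart in the lymphocyte genes: their levels summed to 467 and 56.4 CPM in BML-260 A and B, against 42.4 CPM in vehicle A and 78.7 CPM in vehicle B. BML-260 A and BML-260 B are therefore kept apart throughout, and the counts of members in the main test are also given without one of them. In bulk tissue, more cells of a type and more RNA per cell cannot be told apart.

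B cells sense antigen with a membrane immunoglobulin whose signal is carried by the CD79A and CD79B chains, and they depend on the transcription factor PAX5 for their identity. T cells carry a receptor coupled to the CD3 chains, use CD4 or CD8 as coreceptors and start signalling through the kinases LCK and ZAP70. Naive T cells express the factors TCF7 and LEF1, the IL-7 receptor and the lymph node homing receptor CCR7, and lower these when they become effector cells. Cytotoxic T cells and NK cells store perforin and granzymes, which kill target cells. Lean adipose tissue is known to hold resident NK and T cells and few B cells, and inguinal subcutaneous fat of the mouse encloses a lymph node. The labels do not say whether the sampled fat was inguinal. DUSP22 itself is known to dephosphorylate LCK in mouse T cells.

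Promoters of the lymphocyte genes were searched for the letters of known binding motifs. Any link between these letters and the differences between libraries, described below, was not tested. RefSeq promoters (GRCm38.p6, 250 bases before to 50 bases after a start site) were given for 28 of the 39 genes. The core letters of the RUNX site, TGTGGT, searched on both strands, occurred in the promoters of all 6 cytotoxic and NK genes with an entry, of 3 of 14 T cell genes (Il7r, Lck and Zap70) and of 1 of 8 B cell genes (Fcer2a). Over the table, 16.8% of 32851 promoters, and 18.9% of genes by at least 1 promoter, held these letters. RUNX factors act in T and NK cell development. These are 30-base windows, 1 for each of the 6 cytotoxic and NK genes, on the gene's strand, with the match in capitals (ACCACA where it lies on the other strand).
Gzma, chr13:113101014-113101043, minus strand: gagaagaacaaaACCACAtcctttgcactc
Gzmb, chr14:56262351-56262380, minus strand: tgtgggttctgcTGTGGTtacttcatgatt
Klrb1c, chr6:128788713-128788742, minus strand: aggaaggaaagcTGTGGTcatggtgttttg
Ncr1, chr7:4337662-4337691, plus strand: caggcctcacccACCACAtcctgtgcatct
Nkg7, chr7:43437043-43437072, plus strand: gggcccacccctACCACAtaggaggagagg
Prf1, chr10:61297694-61297723, plus strand: tgggaacctgtgACCACActctgggggcag
Among the windows shown, those of Gzma, Gzmb and Ncr1 begin the match within 50 bases before the start site. That of Prf1 lies farthest away of these, at 130 bases before it. Gzmb and Ncr1 each hold another match, not shown, at 93 and 176 bases before the start site. Distances are counted from RefSeq start sites, which need not be the ends of the GENCODE genes given elsewhere. For 22 of the 28 genes, bases after a start site occurred in a GENCODE vM21 transcript of the gene.

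The core of the EBF site, CCCNNGGG, which reads the same on both strands, occurred in 3 of 8 B cell genes (Bank1, Cd22 and Spib), 3 of 14 T cell genes and 1 of 6 cytotoxic and NK genes, against 13.7% of all promoters in the table and 15.4% of its genes by at least 1 promoter. EBF1 is a factor of early B cell development. The windows of the 3 B cell genes follow, with the match in capitals.
Bank1, chr3:136326069-136326098, minus strand: tgcggcctgagCCCCTGGGctgcatttccg
Cd22, chr7:30879058-30879087, minus strand: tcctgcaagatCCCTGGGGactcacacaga
Spib, chr7:44532117-44532146, minus strand: ccatggcccgcCCCTGGGGgtaggtaggcg
The octamer ATTTGCAT was in 1.74% of promoters and in 0 of the 28 genes. A match describes letters in this window and is not evidence that a factor binds.

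BML-260 was compared with vehicle over all genes, which asks how the treatment changed the adipose transcriptome. No lymphocyte gene passed the test. Of the 39 genes, 31 had enough counts in at least 2 libraries to be tested. The other 8 (Ms4a1, Fcmr, Cr2, Fcer2a, Blk, Pax5, Lef1 and Foxp3) had enough in BML-260 A alone. With edgeR (quasi-likelihood, Benjamini-Hochberg adjusted p under 0.05), 0 of the 31 were called, and their lowest adjusted p was 0.348, for Cd28. Over all 15643 tested genes, 0.00639% (1 gene) were called higher with BML-260. At an unadjusted p under 0.05, 7 of the 31 were higher with BML-260 (Cd22, Cd79a, Spib, Cd27, Cd28, Il7r and Ccr7) and 0 were lower, while 7.45% of all tested genes were higher. Over all libraries 27 of the 31 had a log2 fold change above 0, and without BML-260 A 11 of the 31 had. Leaving out BML-260 B or a vehicle library lets in members too low for this test, so those fits cover another set of members. DESeq2 called 0 of the members and 2.1% of all tested genes higher. The authors' deposited table gives 0 of the 39 genes an adjusted p under 0.05, with 0.0727 for Cd28 as the lowest, and 0.555% of all its genes are higher at that threshold.

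**Figure D1:**
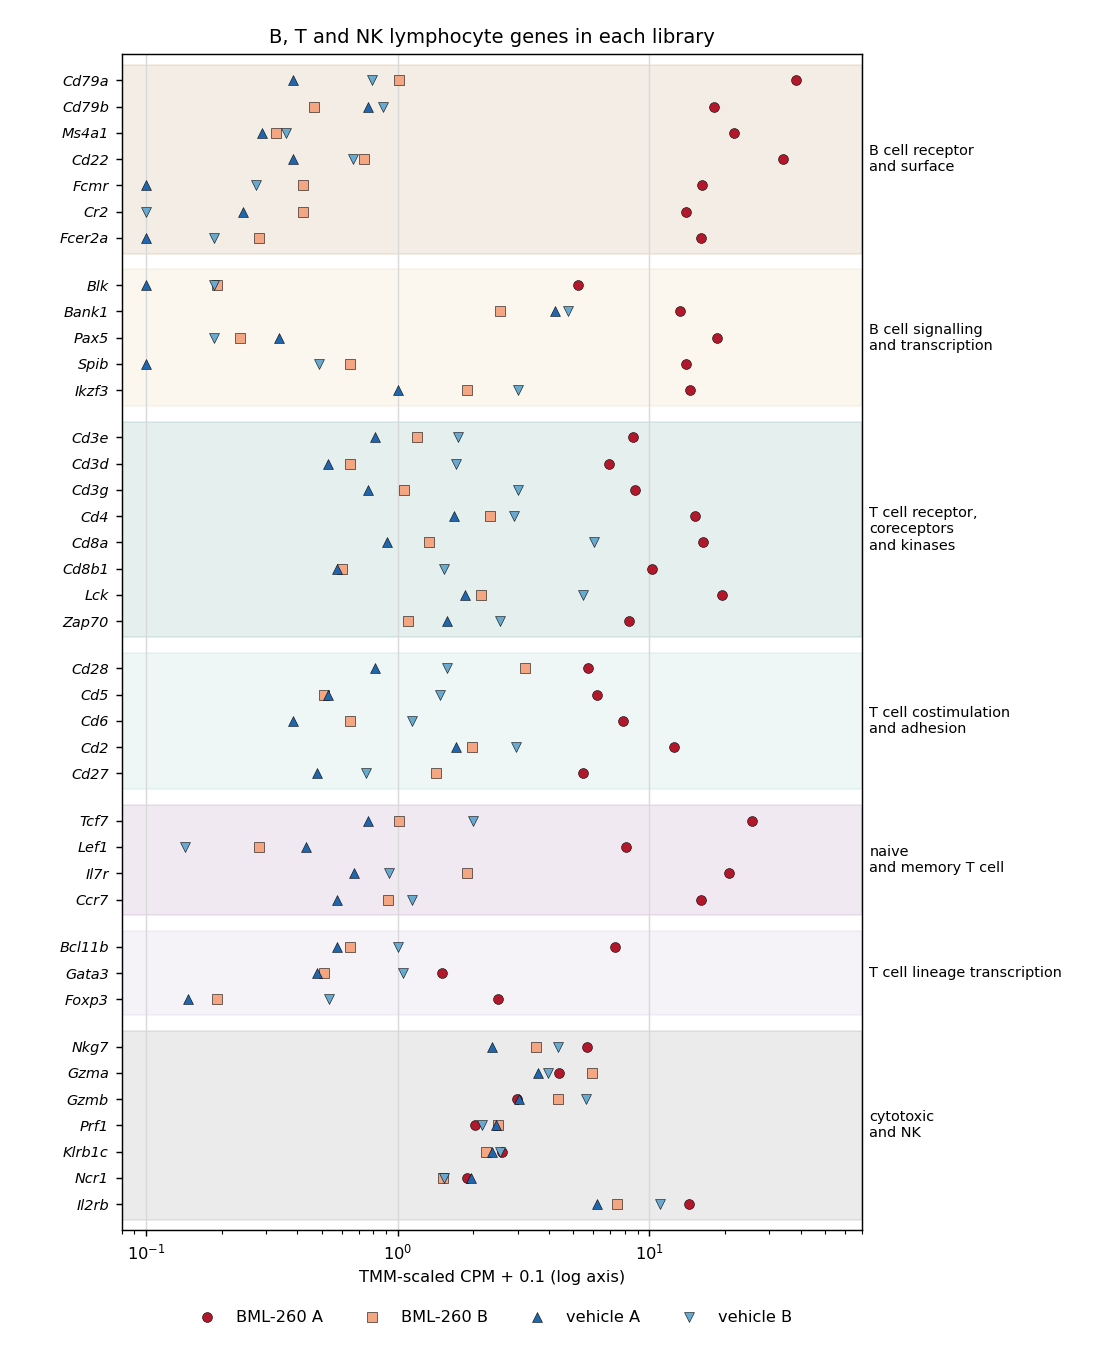
Level of each of the 39 lymphocyte genes in each library (TMM-scaled CPM plus 0.1, log axis), grouped by role; each point is 1 library. BML-260 A (dark red circles) is the highest library for every B and T cell gene and lies apart from the other 3 for most of them. The gap to the next library is smallest for Gata3 and Cd28. The 4 libraries overlap for the cytotoxic and NK genes.

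The B cell receptor and its surface partners were high in 1 library. Cd79a (ENSMUSG00000003379, protein coding, chr7:24897381-24902197, plus strand, GRCm38), a signalling chain of the receptor, had 38.1 and 0.911 CPM in BML-260 A and B, against 0.285 CPM in vehicle A and 0.692 CPM in vehicle B. Its means were 19.5 ± 26.3 CPM with BML-260 and 0.488 ± 0.288 CPM with vehicle (SD, n = 2 each), so the spread within the BML-260 group exceeded its mean. The fitted log2 fold change was 5.29 (SE 1.77, edgeR adjusted p = 0.416). Ms4a1, which encodes the B cell surface protein CD20, had 448 and 5 counts in BML-260 A and B, against 4 and 6 in vehicle A and B. Fcmr, the receptor for the Fc part of IgM, had 334 and 7 counts in BML-260 A and B, against 0 and 4 in vehicle A and B. Cr2, complement receptor CD21 of mature and follicular B cells, had 288 and 7 counts in BML-260 A and B, against 3 and 0 in vehicle A and B. In all 3 genes BML-260 B held no more than 7 counts and lay in or just above the range of vehicle. Cd79b, Cd22, an inhibitory coreceptor, and Fcer2a, the low-affinity IgE receptor CD23, had 15.9 to 33.9 CPM in BML-260 A and under 1 CPM in every other library.

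The B cell regulators followed the same pattern with more variation among themselves. Pax5 had 384 and 3 counts in BML-260 A and B, against 5 and 2 in vehicle A and B, and its level was 135-fold higher in BML-260 A than in BML-260 B (95% counting interval 46.0 to 659), the widest gap of the 39 genes. Intervals of this kind cover counting error only, and sequencing reads are not independent molecules. Blk, a Src family kinase, and Spib, an ETS factor of B cells, were 56.0-fold and 25.4-fold higher in BML-260 A than in BML-260 B. Bank1, an adaptor of B cell receptor signalling, had the smallest gap of its group, with 13.1 and 2.46 CPM in BML-260 A and B, against 4.13 and 4.67 CPM in vehicle A and B. Bank1 thus had more than 2 CPM in all 4 libraries, and BML-260 B was the lowest of them. BML-260 B was also the lowest for Cd79b, with 0.364 CPM against 0.665 and 0.778 CPM in vehicle A and B. Ikzf3 (Aiolos), shared by B, T and NK cells, had 14.4 and 1.78 CPM in BML-260 A and B, against 0.902 and 2.90 CPM in vehicle A and B. Summed over the 12 B cell genes, the level was 222 and 7.97 CPM in BML-260 A and B, against 6.83 CPM in vehicle A and 10.7 CPM in vehicle B.

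The T cell receptor chains, coreceptors and kinases were also highest in BML-260 A, and vehicle B came next in all 8 of them. Cd3e, a CD3 signalling chain, had 8.52 and 1.09 CPM in BML-260 A and B, against 0.712 and 1.64 CPM in vehicle A and B. Cd4, the helper coreceptor, had 15.1 and 2.23 CPM in BML-260 A and B, against 1.57 and 2.81 CPM in vehicle A and B. Cd8a, the cytotoxic coreceptor, had 16.2 and 1.23 CPM in BML-260 A and B, against 0.807 and 5.92 CPM in vehicle A and B. Both coreceptors were thus lowest in vehicle A, and the groups overlapped because vehicle B lay above BML-260 B. Within vehicle, Cd8a was 7.34-fold higher in B than in A, the largest such gap among tested members with counts in both vehicle libraries. Lck had 19.3 and 2.05 CPM in BML-260 A and B, against 1.76 and 5.36 CPM in vehicle A and B. Zap70, which docks on phosphorylated CD3 chains, had 8.23 and 1.0 CPM in BML-260 A and B, against 1.47 and 2.46 CPM in vehicle A and B, so BML-260 B was lower than both vehicle libraries.

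Neighbouring genes of the receptor complex gave similar ratios. On chromosome 9, Cd3g (44969572 to 44980431, minus strand, GRCm38) and Cd3d (44981786 to 44987339, plus strand) lie head to head 1354 bases apart, with Cd3e 11.4 kb farther on. Their levels were 9.06-fold, 12.4-fold and 7.80-fold higher in BML-260 A than in BML-260 B, for Cd3g, Cd3d and Cd3e in that order. On chromosome 6, Cd8b1 and Cd8a lie 35.9 kb apart and were 20.3-fold and 13.2-fold higher in BML-260 A than in BML-260 B. The counting intervals overlapped within both loci. The sources used here do not give a strand setting for the counting, and these annotated genes do not overlap each other.

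Costimulatory and adhesion genes divided. Cd2, the receptor for CD48, had 12.4 and 1.87 CPM in BML-260 A and B, against 1.61 and 2.85 CPM in vehicle A and B. Cd5 and Cd6, scavenger receptor family members 50.3 kb apart on chromosome 19, were 14.9-fold and 14.2-fold higher in BML-260 A than in BML-260 B, and for both the level in vehicle B exceeded that in BML-260 B. Cd28, the receptor for CD80 and CD86, had 5.63 and 3.10 CPM in BML-260 A and B, against 0.712 and 1.47 CPM in vehicle A and B. Both BML-260 libraries were above both vehicle libraries for Cd28, and its counts were 117 and 68 in BML-260 A and B, against 15 and 34 in vehicle A and B. The log2 fold change was 1.99 (SE 0.51, edgeR adjusted p = 0.348) over all libraries and 1.48 (SE 0.55) without BML-260 A. Cd27, a TNF receptor family costimulator, likewise had 5.35 and 1.32 CPM in BML-260 A and B, against 0.380 and 0.648 CPM in vehicle A and B, and its log2 fold change was 2.67 (SE 0.78, edgeR adjusted p = 0.377). Among tested members, Cd79a, Cd22, Spib, Il7r and Gzma also had both BML-260 libraries above both vehicle libraries. For Cd22 this rested on 0.638 CPM in BML-260 B against 0.562 CPM in vehicle B. The share of all tested genes separated in this way was not counted, so nothing is read from such separation.

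Genes of naive and memory T cells showed the largest gap among the T cell groups. Tcf7 (TCF-1) had 25.4 and 0.911 CPM in BML-260 A and B, against 0.665 and 1.90 CPM in vehicle A and B. Ccr7 had 333 and 18 counts in BML-260 A and B, against 10 and 24 counts in vehicle A and B. For both genes vehicle B lay between the BML-260 libraries. Il7r had 20.6 and 1.78 CPM in BML-260 A and B, against 0.570 and 0.821 CPM in vehicle A and B, and so did not overlap between the groups (log2 fold change 3.99, SE 1.2, edgeR adjusted p = 0.380). Lef1 had 165 expected counts in BML-260 A, against at most 7 in any of the other 3 libraries. Summed over the 4 genes, the level was 19.0-fold higher in BML-260 A than in BML-260 B (95% counting interval 15.2 to 24.0).

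Among the factors of T cell lineage, Bcl11b, needed for T cell commitment, had 7.22 and 0.547 CPM in BML-260 A and B, against 0.475 and 0.908 CPM in vehicle A and B. Gata3, the factor of type 2 helper cells, differed least, with 29 and 9 counts in BML-260 A and B, against 8 and 22 in vehicle A and B. Foxp3, the factor of regulatory T cells, had 2.41 and 0.0911 CPM in BML-260 A and B, against 0.0475 and 0.432 CPM in vehicle A and B. Foxp3 rested on about 50, 2, 1 and 10 expected counts in these 4 libraries, so ratios among the 3 low ones are imprecise.

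The cytotoxic and NK genes did not share this pattern. Gzma (ENSMUSG00000023132, protein coding, chr13:113093825-113100981, minus strand, GRCm38), which encodes granzyme A, had 4.29 and 5.83 CPM in BML-260 A and B, against 3.51 and 3.85 CPM in vehicle A and B. Its means were 5.06 ± 1.09 CPM with BML-260 and 3.68 ± 0.236 CPM with vehicle (SD, n = 2 each), and its log2 fold change was 0.46 (SE 0.28, edgeR adjusted p = 0.588). Both BML-260 libraries lay above both vehicle libraries for Gzma, with BML-260 B the higher one. Ncr1, the NK receptor NKp46, had 37 and 31 counts in BML-260 A and B, against 39 and 33 in vehicle A and B, and its log2 fold change was -0.04 (SE 0.37, edgeR adjusted p = 0.98). Gzmb, Prf1 and Klrb1c (NK1.1) had 1.93 to 5.53 CPM over all 4 libraries, and their log2 fold changes were between -0.25 and -0.03 with SEs of 0.30 to 0.41. For these 3 genes the groups overlapped.

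Within that group, Nkg7, a granule membrane protein, and Il2rb, the shared receptor chain of IL-2 and IL-15, leaned towards the T cell pattern. Nkg7 had 5.54 and 3.46 CPM in BML-260 A and B, against 2.28 and 4.24 CPM in vehicle A and B. Il2rb had 14.3 and 7.33 CPM in BML-260 A and B, against 6.08 and 10.9 CPM in vehicle A and B. In both genes BML-260 A was the highest library and vehicle B the next, but BML-260 A exceeded BML-260 B by only 1.60-fold (95% counting interval 1.19 to 2.17) for Nkg7 and 1.96-fold (1.61 to 2.39) for Il2rb. Over the 7 genes the summed level was 33.3 and 26.8 CPM in BML-260 A and B, against 21.3 and 30.5 CPM in vehicle A and B, with BML-260 A 1.24-fold higher than BML-260 B (95% counting interval 1.11 to 1.39). Without Il2rb, the member with the most reads, the ratio was 0.971.

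**Figure D2:**
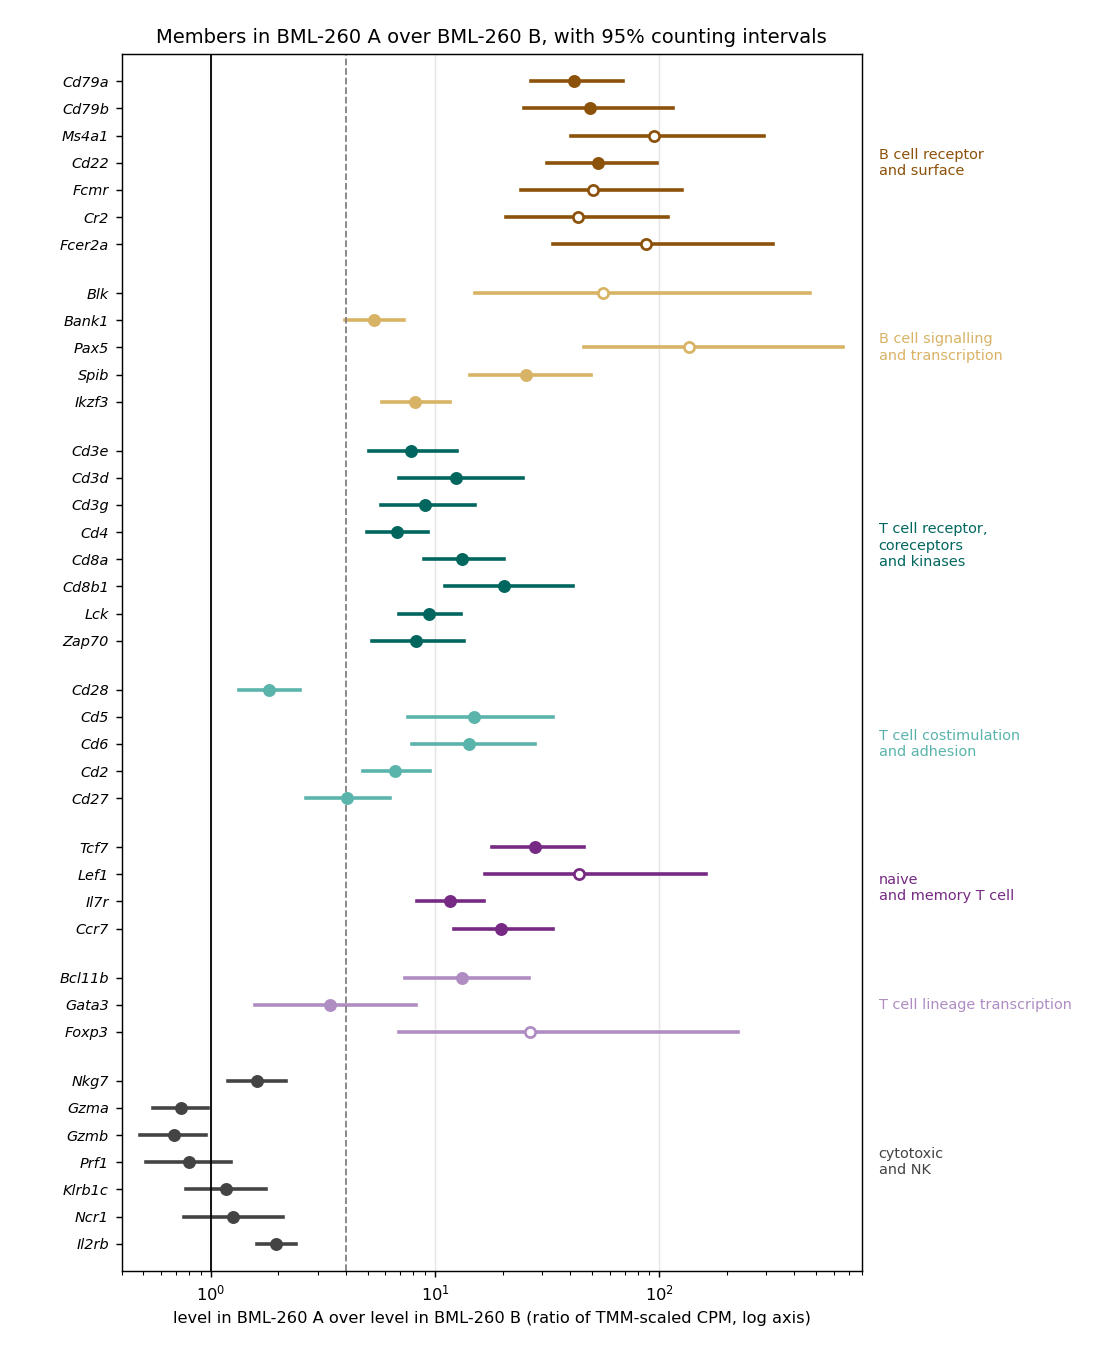
Ratio of the level in BML-260 A to that in BML-260 B for each gene (log axis), with 95% counting intervals from 1 library each; open circles are the 8 genes not tested over groups, the solid line marks equal levels and the dashed line 4-fold. All 12 B cell genes lie past 4-fold, and all 7 cytotoxic and NK genes lie under 2-fold.

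Between the 2 BML-260 libraries no test over samples is possible, since each is 1 library. Of the 39 genes, 30 were at least 4-fold higher in BML-260 A than in BML-260 B, namely all 12 B cell genes, 18 of 20 T cell genes and 0 of 7 cytotoxic and NK genes. Among tested genes the number was 22 of 31 members, against 1.47% of all 15643. The member nearest under the 4-fold mark was Gata3 at 3.41-fold, the next being Il2rb at 1.96-fold, and nearest past it lay Cd27 at 4.05-fold and Bank1 at 5.34-fold. BML-260 A was the highest of the 4 libraries in 27 of the 31 tested members, against 29.7% of all tested genes, and in 35 of the 39. The exceptions were 4 cytotoxic and NK genes, Gzma, Gzmb, Prf1 and Ncr1.

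The summed ratios ordered the groups. The B cell receptor and surface genes were 53.1-fold higher in BML-260 A than in BML-260 B (95% counting interval 41.6 to 69.0), the naive and memory T cell genes 19.0-fold (15.2 to 24.0) and the B cell regulators 13.0-fold (10.7 to 15.9). The T cell lineage factors were 10.5-fold higher (6.84 to 16.9), the T cell receptor group 9.67-fold (8.38 to 11.2) and the costimulation and adhesion group 5.15-fold (4.33 to 6.14). As a median over genes in place of a sum, the B cell regulators were at 25.4-fold and the naive and memory genes at 23.8-fold, which turns their order round. Neighbours from the naive and memory genes down to the T cell receptor group had overlapping intervals. The B cell surface group lay above all others, and the cytotoxic and NK group, at 1.24-fold, lay below all others.

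Vehicle also varied within itself. The summed T cell receptor group had 7.88 CPM in vehicle A and 24.1 CPM in vehicle B, a 3.06-fold gap, while the B cell surface genes differed 1.63-fold and the cytotoxic and NK genes 1.43-fold. Of the 31 tested members, 15 were at least 2-fold higher in vehicle B than in the other vehicle library, against 5.11% of all tested genes. These 15 comprise 12 of 18 tested T cell genes and 3 of 6 tested B cell genes. The within-vehicle gap was 9.11-fold for Foxp3, which was too low to be tested.

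Ratios per transcript length described the composition of each library. In FPKM, the level of Cd79a over that of Cd3e was 5.10 and 0.707 in BML-260 A and B, against 0.182 in vehicle A and 0.565 in vehicle B. In CPM, with no division by length, it was 4.47 and 0.836 in BML-260 A and B, against 0.4 and 0.422 in vehicle A and B, so vehicle A and B differed in this ratio through the FPKM of Cd3e. Tcf7 over Gzma was 1.71 and 0.0419 in BML-260 A and B, against 0.0592 in vehicle A and 0.132 in vehicle B. Ccr7 over Nkg7 was 0.958 and 0.0761 in BML-260 A and B, against 0.0647 in vehicle A and 0.0848 in vehicle B. On this scale Gzma exceeded Tcf7 in 3 libraries and was below it in BML-260 A alone. Cd4 over Cd8a was 0.938 and 1.88 in BML-260 A and B, against 1.61 and 0.392 in vehicle A and B, so Cd8a exceeded Cd4 by the most in vehicle B. By FPKM, the highest cytotoxic gene was Nkg7 in BML-260 A and Gzma, with 9.87 FPKM, in BML-260 B. FPKM depends on the transcript lengths assigned to a gene, and ratios on few counts are imprecise, as for Cd79a and Cd3e in vehicle A with 6 and 15 counts. In BML-260 B, Gzma exceeded the 3.03 FPKM of the 7 B cell surface genes together.

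**Figure D3:**
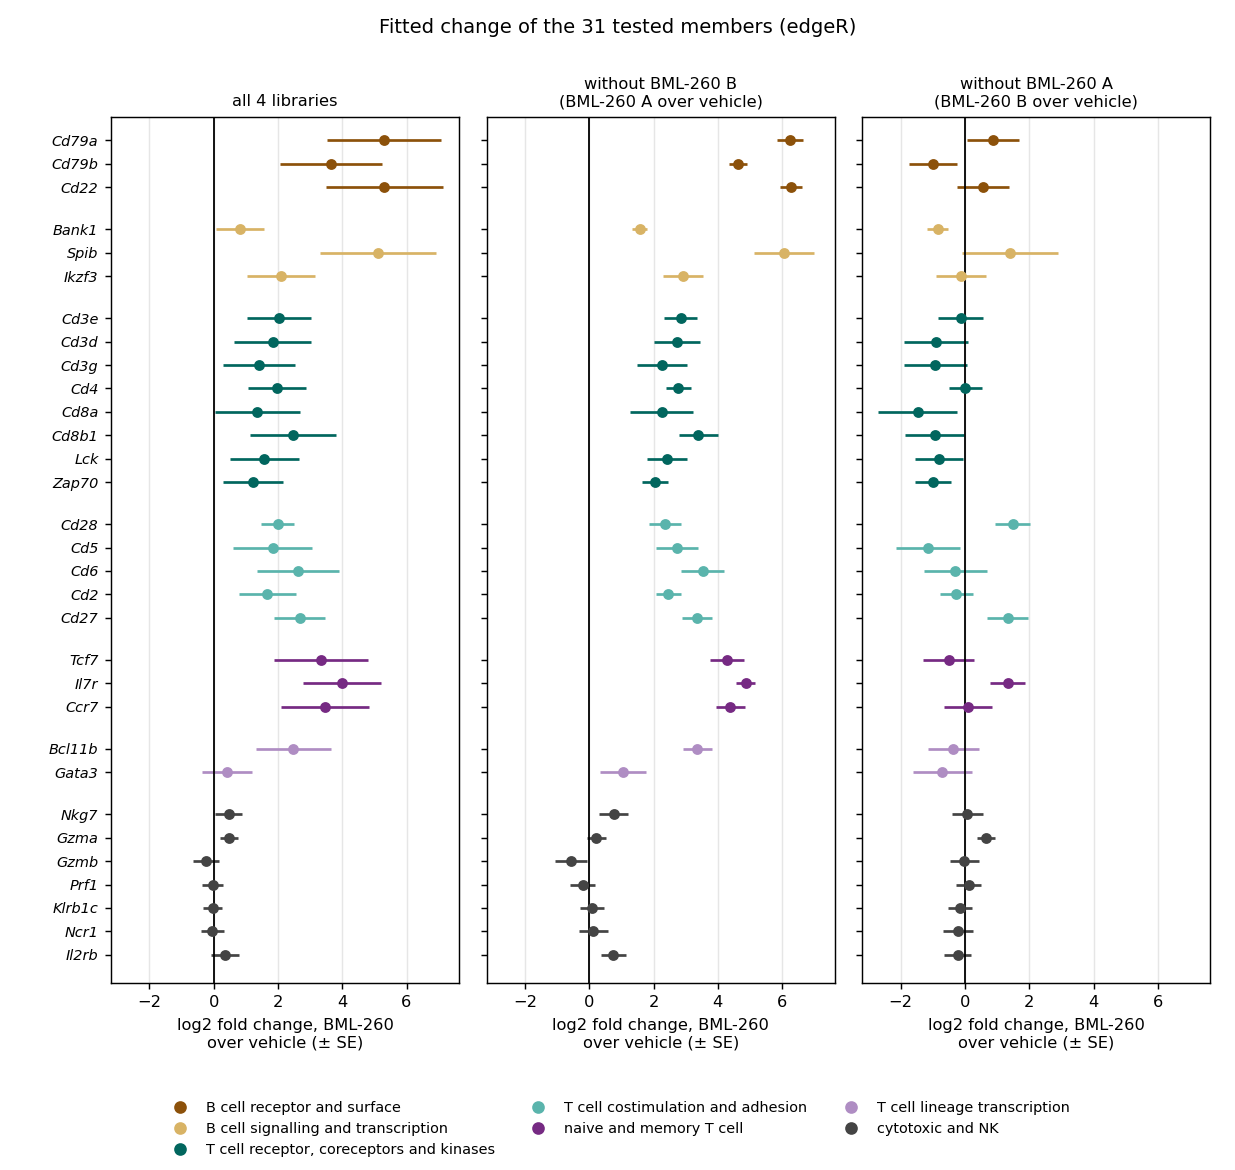
Fitted log2 fold change of the 31 tested genes (x axis, BML-260 over vehicle, ± SE), with all 4 libraries (left), without BML-260 B (middle) and without BML-260 A (right), coloured by role; the 3 fits share the vehicle libraries. All B and T cell genes lie to the right of 0 in the left and middle panels, some (Gata3, Bank1 and Cd8a in the left panel) within about 1 SE of it, and they lie on both sides of 0 in the right panel.

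Each BML-260 library was next set against vehicle on its own, in fits that assume the lone library varies like the vehicle libraries and that share both of these. Without BML-260 B, all 39 genes had enough counts. At an unadjusted p under 0.05, 30 of the 39 were higher, against 11.6% of 16305 tested genes. These 30 were 12 B cell genes and 18 T cell genes. They include all 8 genes with enough counts in BML-260 A alone, which enter this fit only through the library where they are high, and 22 of the 31 genes tested with all 4 libraries. edgeR called 0 of those 31 there and 1 of the 8, Ms4a1 (log2 fold change 6.54, edgeR adjusted p = 0.0402), while 0.0307% of all genes were called higher; nothing is read from the call of a gene that entered in this way. Without BML-260 A, 11 of 31 tested members were above 0, with a median of -0.23. At an unadjusted p under 0.05, 1 of the 31 was higher, Cd28, against 5.75% of 16241 tested genes, and 0 were called. The median over all tested genes was 0.02 with all libraries, 0.01 without BML-260 B and -0.02 without BML-260 A.

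By group, and over the genes tested with all 4 libraries, the median log2 fold change of the 3 B cell surface genes was 5.29 over all libraries, 6.25 without BML-260 B and 0.56 without BML-260 A. For the 8 genes of the T cell receptor group it was 1.71, 2.57 and -0.91 in these 3 fits, and for 3 naive and memory genes 3.46, 4.38 and 0.09. The cytotoxic and NK genes had -0.03, 0.12 and -0.02. The direction in the T cell receptor group thus turned when BML-260 A was left out, and only Cd4 among its 8 genes stayed above 0, at 0.01 (SE 0.51). Without BML-260 A, the members with a log2 fold change over 1 were Cd28 with 1.48, Spib with 1.41 (SE 1.49), Il7r with 1.33 (SE 0.54) and Cd27 with 1.33 (SE 0.64). Those under -1 in that fit were Cd8a with -1.47 (SE 1.23) and Cd5 with -1.16 (SE 0.99). With no filter on low counts, edgeR called 14 of the 39 genes and 2.31% of 24481 genes higher. Those 14 were 9 B cell genes and 5 T cell genes (Cd28, Cd27, Lef1, Il7r and Ccr7), and 7 of them are genes with enough counts in BML-260 A alone, which the filter had left out.

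Other genes of the same cell types were taken from lists that hold none of the 39. Of 20 other B cell genes, 10 (4 of the 14 tested) were at least 4-fold higher in BML-260 A than in BML-260 B and 0 were called. Its most abundant genes, Ebf1, Syk, Cd37 and Ciita, are also expressed outside B cells and differed less, and Ebf1 had 81.2 and 78.1 CPM in BML-260 A and B, against 88.8 and 84.4 CPM in vehicle A and B. Summed over each list, the ratio of BML-260 A over BML-260 B was 2.66 for other B cell genes, 2.08 for other T cell genes and 2.13 for other cytotoxic and NK genes, so these sums did not separate the cell types. Of 24 other T cell genes, 15 (11 of the 20 tested) were past 4-fold, against 1.47% of all tested genes. Of 16 other cytotoxic and NK genes, 0 were past it, and edgeR called 0 in either list. Ccl5, the chemokine of that last list with the highest level, had 18.3 and 5.24 CPM in BML-260 A and B, against 3.51 and 10.5 CPM in vehicle A and B. Among the other T cell genes, DESeq2 called Satb1, a chromatin organiser of T cells, and Prkcq, a kinase of T cells and skeletal muscle, which was named after its values were seen. These were 2 of the 20 tested, and DESeq2 called 2.1% of all tested genes higher. Prkcq had 21.2 and 18.4 CPM in BML-260 A and B, against 3.23 and 6.09 CPM in vehicle A and B (edgeR adjusted p = 0.279). Satb1 had 32.1 and 24.5 CPM in BML-260 A and B, against 9.78 and 8.34 CPM in vehicle A and B (edgeR adjusted p = 0.216). The DESeq2 adjusted p was 4.23e-07 for Satb1 and 1.88e-05 for Prkcq. In the authors' own comparison the adjusted p was 5.09e-07 for Satb1 and 1.15e-05 for Prkcq. For both genes the BML-260 libraries lay above both vehicle libraries, as did skeletal muscle genes, whose part in this was not tested. Genes of plasma and germinal centre cells had a summed ratio of BML-260 A over BML-260 B of 1.07, and 0 of 10 were past 4-fold.

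Markers of lymph node stroma and high endothelial venules, the vessels through which naive lymphocytes enter lymph nodes, also summed highest in BML-260 A. Their 9 genes summed to 90.8 and 9.75 CPM in BML-260 A and B, against 18.8 CPM in vehicle A and 19.8 CPM in vehicle B. The level in vehicle B over that in vehicle A was 1.05 for these markers and 1.86 for the 39 lymphocyte genes. Of the 9 markers, 7 were at least 4-fold higher in BML-260 A than in BML-260 B. Among tested genes these were 3 of 3, against 1.47% of all tested genes. Glycam1, a mucin of these venules, had 171 and 0 counts in BML-260 A and B, against 0 and 0 in vehicle A and B, and was at least 60.3-fold higher in BML-260 A than in BML-260 B against a floor of 3 counts per library. BML-260 A was thus the only one of the 4 libraries with reads of Glycam1. Ccl21a, the ligand of CCR7, had 56.7 and 4.37 CPM in BML-260 A and B, against 10.6 and 5.75 CPM in vehicle A and B, although near-identical copies of this gene make its count uncertain. Ccl19, the other ligand of CCR7, had 12.8 and 2.37 CPM in BML-260 A and B, against 1.90 and 2.77 CPM in vehicle A and B. Cxcl13, which attracts B cells, had 10.3 and 2.46 CPM in BML-260 A and B, against 5.65 and 10.3 CPM in vehicle A and B. The part of this tissue in the lymphocyte result was not tested.

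**Figure D4:**
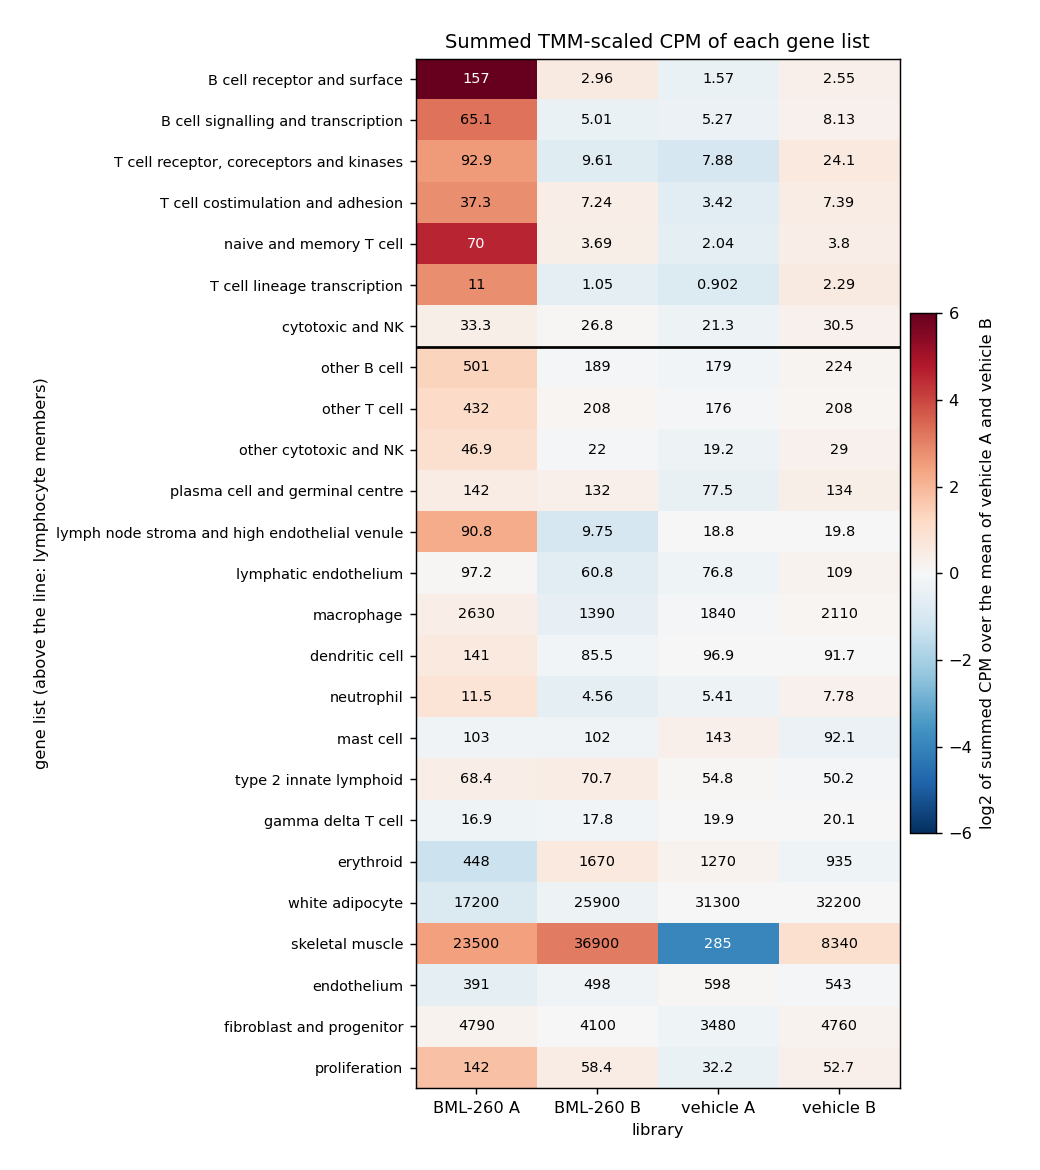
Summed TMM-scaled CPM of each gene list (rows) in each library (columns); the number is the sum, the colour its log2 ratio to the mean of both vehicle libraries, and the line divides the 7 groups of the 39 genes from lists of other genes. The deepest red cells in the BML-260 A column are the B cell surface group and the naive and memory T cell group. The B cell regulators and the other T cell groups are a lighter red there, and the cytotoxic and NK row is pale in all columns.

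Summed over their lists, other cell types differed less or in another order. Macrophage genes summed to 2630 and 1390 CPM in BML-260 A and B, against 1840 and 2110 CPM in vehicle A and B, and dendritic cell genes to 141 and 85.5 CPM in BML-260 A and B, against 96.9 and 91.7 CPM in vehicle A and B. Proliferation genes summed to 142 and 58.4 CPM in BML-260 A and B, against 32.2 and 52.7 CPM in vehicle A and B, and all 7 were highest in BML-260 A. Skeletal muscle genes were high in both BML-260 libraries, 23500 CPM in A and 36900 CPM in B, against 285 CPM in vehicle A and 8340 CPM in vehicle B. Muscle was thus highest in BML-260 B, where the lymphocyte genes lay near vehicle. White adipocyte genes summed to 17200 and 25900 CPM in BML-260 A and B, against 31300 and 32200 CPM in vehicle A and B, and erythroid genes to 448 and 1670 CPM in BML-260 A and B, against 1270 and 935 CPM in vehicle A and B. Neutrophil, lymphatic endothelium, fibroblast and endothelium lists had summed ratios of BML-260 A over BML-260 B of 2.53, 1.60, 1.17 and 0.785, in that order. Lists of mast cells, type 2 innate lymphoid cells and gamma delta T cells had summed ratios of BML-260 A over BML-260 B between 0.951 and 1.0. Single genes could differ from these sums. At least 4-fold higher in BML-260 A than in BML-260 B were 0 of 6, 2 of 7 and 1 of 7 genes, in that order. Among tested genes these were 0 of 6, 1 of 4 and 0 of 1, against 1.47% of all tested genes. Of 8 neutrophil genes, 4 were past the same mark (0 of the 2 tested), and of 10 dendritic cell genes, 1 (1 of the 10 tested). In the macrophage, proliferation, lymphatic endothelium, fibroblast and endothelium lists 0 genes were. The part of these cell types in the lymphocyte values was not tested.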

How the data were processed

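Total RNA was extracted with TRIzol, per the labels' protocols. Per the submitters' processing notes, the build was GRCm38.p5 and the tools were RSEM 1.2.31, HISAT2 2.1.0 and DESeq2 1.10.1, whose roles are not stated. The authors deposited 1 table of expected counts and FPKM per gene and library, with group means, log2 values, p-values and adjusted p-values of their own comparison. Expected counts need not be whole, and 5 of the 156 values of the 39 genes were not. They were rounded before testing.

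Genes were filtered with filterByExpr, scaled with TMM and tested with edgeR 4.0.16 (quasi-likelihood, group as only term, two-sided, R 4.3.3), with 2 residual and 3.28 prior degrees of freedom. The SE is the log2 fold change over the square root of F. Groups came from the treatment labels. Sums and ratios use TMM-scaled CPM. Ratios carry 95% counting intervals, and ratios to 0 counts use a floor of 3. Coordinates are from GENCODE vM21 (GRCm38), which held 51633 of the identifiers.

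The genes and lists were chosen with earlier results of these data known. Values in every library are given for members named by rule, for members that go against their group, and for up to 4 genes of highest mean CPM per other list. The pipeline was tried on simulated counts. Alternatives were DESeq2 1.42.0, limma-voom (limma 3.58.1), other scaling, other filters, the library letter as a term and leaving out each library. Same-lettered libraries did not deviate together (correlation of the A minus B differences -0.0593), so letters were not taken as pairs. A planned search for protein motifs was not run, since no protein sequences were used here.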

Additional observations from a re-analysis of the deposited data

How the results depend on the processing

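Each library was left out in turn. Over these 4 fits the number of members at an unadjusted p under 0.05 ran between 1 and 30, that of members called between 0 and 1 and that of genes called between 0 (without vehicle A) and 309 (without vehicle B). The median log2 fold change ran from 0.56 to 6.54 for B cell surface genes, -0.12 to 6.06 for B cell regulators, -0.91 to 2.79 for the T cell receptor group, -0.28 to 2.91 for costimulation, 0.094 to 4.62 for naive and memory genes and -0.54 to 3.26 for lineage factors. The fit without BML-260 B holds 8 more members, which pass its filter only through BML-260 A. Its count of members at that p thus covers another gene set, as do its medians for B cell, naive and memory, and lineage genes. The fits without vehicle A and without vehicle B also took in members too low for the test with all libraries. Their counts, and their medians for these groups, are likewise not over the same genes. Single genes turned direction in 26 values of 21 tested members, 18 of them without BML-260 A, and the other alternatives turned none of the tested members. The ranges of log2 fold change over the 4 fits were Cd79b -0.99 to 4.62, Bank1 -0.85 to 1.57, Ikzf3 -0.12 to 3.16, Cd3e -0.13 to 2.84, Cd3d -0.91 to 3.08, Cd3g -0.92 to 2.84, Cd8a -1.47 to 3.42, Cd8b1 -0.94 to 3.47, Lck -0.81 to 2.59, Zap70 -0.99 to 2.05, Cd5 -1.16 to 2.91, Cd6 -0.30 to 3.83, Cd2 -0.28 to 2.46, Tcf7 -0.51 to 4.29, Bcl11b -0.36 to 3.36, Gata3 -0.71 to 1.23, Prf1 -0.21 to 0.10, Il2rb -0.23 to 0.83, Klrb1c -0.16 to 0.074, Ncr1 -0.23 to 0.13 and Gzmb -0.66 to 0.28.

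DESeq2 called 407 genes and counted 13 members at an unadjusted p under 0.05, and limma-voom counted 1. With no filter on low counts, 651 genes and 14 members were called, 27 members were at an unadjusted p under 0.05, and the median of the B cell regulators was 5.12, from 5 genes in place of 3. A minimum of 10 counts in all libraries left 3 members at that p. With the library letter as a replicate block, 0 genes were called and 2 members were at that p. On deposited FPKM the ratio of BML-260 A over BML-260 B was 36.9 for B cell surface genes and 6.33 for costimulation. As a median over genes it was 25.4 for B cell regulators and 6.65 for costimulation, and without the member with the most reads (Pax5 and Il2rb) it was 9.55 for B cell regulators and 0.971 for cytotoxic and NK genes. Library totals gave 1.39 for cytotoxic and NK genes. Except where the sets of genes or libraries differ, the cause was not tested. Members with under about 10 counts outside BML-260 A give no reading of the other 3 libraries among themselves.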
